A study of Homo sapiens with 6 samples.

Results

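CCNG2, the gene of cyclin G2, and 9 further regulators of cell cycle arrest and quiescence were followed on arrays of SUM159 oncospheres: CCNG1, CDKN1A, CDKN1B, CDKN1C, RBL2, FOXO1, FOXO3, KLF6 and CCND1. The set was chosen by measured values, since a probe set of CCNG2 had passed the threshold of the comparison described here, and the other genes were listed around it with results of these data known. The values below therefore describe these genes and do not test them. The 10 genes, of 19775 with a probe set annotated to them alone, were read by 29 of the 54613 probe sets tested. A further 3 probe sets carried FOXO3 together with FOXO3B and were not counted. CCNG2, CDKN1C and KLF6 had 5 probe sets each, FOXO3 had 4, FOXO1 had 3, RBL2 and CCND1 had 2, and CCNG1, CDKN1A and CDKN1B had 1. A level was above the median of all probe sets (6.91 on the log2 scale, mean over the 6 arrays) for 26 of the 29, the exceptions being 1 probe set each of CCNG2, CDKN1C and FOXO1.

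SUM159 is an established line of human triple-negative breast cancer cells, and oncospheres are floating clusters that such cells form where they cannot attach. The group labelled SCGB3A1 (3 arrays) was transduced with a lentiviral pLVX-puro vector that carried human SCGB3A1, a small secreted protein, as a synthesized cDNA. The empty vector group (3 arrays) was transduced with the vector without an insert. Both groups went through puromycin selection (2 µg/ml, 7 days) and then 5 days of culture without attachment from 12500 cells/ml, and the study asked how the cells respond to SCGB3A1.

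Quiescence is a reversible exit from the division cycle. It is held by inhibitors of cyclin-dependent kinases, by the pocket protein p130 and the repressor complex it forms with E2F factors (DREAM), and by FOXO transcription factors, which are active when PI3K and AKT signalling is low. Cyclin G2 is an unconventional cyclin that is found in cells that have stopped dividing. It binds regulatory subunits of the phosphatase PP2A, and its gene is a known FOXO target, whereas cyclin D1 drives cells out of quiescence.

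RefSeq promoter windows of GRCh38.p14 (250 bases before and 50 after the annotated start) were at hand for 8 of the 10 genes, in 13 windows. The stretches before the start are shown for CCNG2, whose probe set carried the difference, and for FOXO1 and CDKN1B, which each had a probe set whose groups did not overlap, so that the regulatory sequence can be read beside the levels. Capitals mark 4 motifs searched on both strands: GTAAACA (FOXO element), CACGTG (E-box), CCAAT (reverse ATTGG) and TTTGAA (cell cycle homology region, a DREAM site). None of these matches overlapped another.
CCNG2, chr4:77156957-77157206, plus strand: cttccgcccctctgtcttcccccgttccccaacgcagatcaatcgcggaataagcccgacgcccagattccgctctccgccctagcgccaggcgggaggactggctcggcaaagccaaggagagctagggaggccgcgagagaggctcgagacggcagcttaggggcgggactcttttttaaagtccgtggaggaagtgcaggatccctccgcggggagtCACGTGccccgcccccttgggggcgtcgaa
FOXO1, chr13:40666642-40666891, minus strand: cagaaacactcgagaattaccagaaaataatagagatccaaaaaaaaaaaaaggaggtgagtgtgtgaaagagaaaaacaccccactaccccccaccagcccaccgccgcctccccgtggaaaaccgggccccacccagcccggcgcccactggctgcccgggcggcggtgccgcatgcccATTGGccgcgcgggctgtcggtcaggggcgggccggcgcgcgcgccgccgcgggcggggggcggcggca
CDKN1B, chr12:12717118-12717367, plus strand: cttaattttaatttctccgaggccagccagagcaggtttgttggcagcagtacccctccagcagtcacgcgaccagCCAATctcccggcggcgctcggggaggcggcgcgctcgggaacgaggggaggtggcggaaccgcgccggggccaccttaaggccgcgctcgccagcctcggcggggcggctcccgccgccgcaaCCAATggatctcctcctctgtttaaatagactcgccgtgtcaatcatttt
The CCNG2 window held 1 E-box, 30 bases upstream of the start, a motif found in 2 of the 13 windows (CCNG2 and KLF6) and in 7.26% of all 35116 windows. CCAAT stood in windows of CCNG1, CDKN1B, RBL2, FOXO1 and KLF6, 6 of the 13, against 34.6% of all windows. The 13 windows are not independent, since CCNG1 gave 2 that overlap and hold the same CCAAT sites. RBL2 gave 2 windows and FOXO3 gave 4. TTTGAA stood in windows of RBL2 and KLF6, against 15.2% of all windows. GTAAACA was in 0 of the 13 windows and in 3.42% of all.

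SCGB3A1 was read first as a check of the labels. Its only probe set had log2 levels of 6.60, 6.92 and 6.71 in the arrays labelled SCGB3A1, against 6.80, 6.89 and 7.05 in the empty vector arrays. The labelled arrays were thus not higher (log2 fold change -0.17 ± 0.10, SE; limma, adjusted p = 0.835). Whether its probes cover the sequence in the vector is not given in the sources used here, so the reading may check nothing, and every direction below holds for the arrays as labelled. Of the mesenchymal and breast markers, VIM (14.37 in the arrays labelled SCGB3A1 and 14.42 in the empty vector arrays) and all 7 others lay above the median level. In this list 3 of 8 genes, 1 higher and 2 lower, did not overlap between the groups, beside 12.3% of all genes, and were not called. The basal keratin KRT5 was at 0.56 (log2 fold change; limma, adjusted p = 0.166). The EMT factor ZEB1 and the receptor EGFR were at -0.25 and -0.24 (limma, adjusted p = 0.717 and 0.759). The other markers of the list overlapped, from -0.16 (CD44) to 0.08 (KRT18). Above the median level lay 2 of 7 luminal markers (ESR1 and GATA3). The same held for 2 of 4 leukocyte markers (CD3E and PTPRC) and 1 of 5 endothelial markers (PECAM1). The mean level of the luminal list was 6.65 to 6.73 over the arrays labelled SCGB3A1 and 6.72 to 6.76 over the empty vector arrays. Empty vector replicate 2 stood apart, with correlations of 0.989 to 0.993 with the other arrays, which reached 0.993 to 0.996 among themselves.

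CCNG2 was higher in the arrays labelled SCGB3A1 by 1 of its 5 probe sets, while its other 4 read differences near 0. Probe set 202769_at had log2 levels of 10.96, 10.84 and 10.82 in the arrays labelled SCGB3A1, against 10.15, 10.26 and 10.24 in the empty vector arrays. All 3 labelled arrays lay above all 3 empty vector arrays, with a gap several times the spread within either group (10.87 ± 0.07 and 10.22 ± 0.06, SD, n = 3 each). This was a 1.58-fold difference (log2 fold change 0.66 ± 0.07, SE, 95% interval 0.50 to 0.82). Its adjusted p of 0.0133 in limma is the value through which CCNG2 was chosen, the fifth smallest p of the table, and it was 1 of 10 calls, or 0.0183% of the probe sets (0.0165% higher and 0.00183% lower). Among the 29 probe sets of the 10 genes it was the only one called, and 2 had an unadjusted p under 0.05, beside 6.2% of all probe sets. With 1 array left out, the log2 fold change stayed between 0.61 and 0.68, but the adjusted p in limma lay between 0.0193 and 0.114. It was under 0.05 in 1 of the 6 fits, the one without empty vector replicate 2. With a replicate block the adjusted p in limma was 0.0912, so the probe set was not called.

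The other probe sets of CCNG2 were measured on the same RNA. Probe set 202770_s_at read 10.57, 10.51 and 10.47 in the arrays labelled SCGB3A1, against 10.47, 10.71 and 10.47 in the empty vector arrays. These groups overlapped, and the highest value belonged to empty vector replicate 2 (log2 fold change -0.03, 95% interval -0.21 to 0.15). Probe set 211559_s_at read 10.47, 10.54 and 10.43 in the arrays labelled SCGB3A1, against 10.44, 10.38 and 10.34 in the empty vector arrays. Here the ranges overlapped by 1 array, and the difference was 0.09 (95% interval -0.06 to 0.25). Probe set 228081_at read 7.97, 8.05 and 7.78 in the arrays labelled SCGB3A1, against 7.96, 7.86 and 7.84 in the empty vector arrays (0.04, 95% interval -0.14 to 0.23). Probe set 1555056_at, the one below the median level, read 6.90, 6.90 and 6.87 in the arrays labelled SCGB3A1, against 6.94, 6.55 and 6.86 in the empty vector arrays (0.11, 95% interval -0.10 to 0.32). The low value of empty vector replicate 2 set this last difference, which was -0.0049 without that array. None of the 4 intervals reached 0.50, the lower bound for 202769_at.

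**Figure D1:**
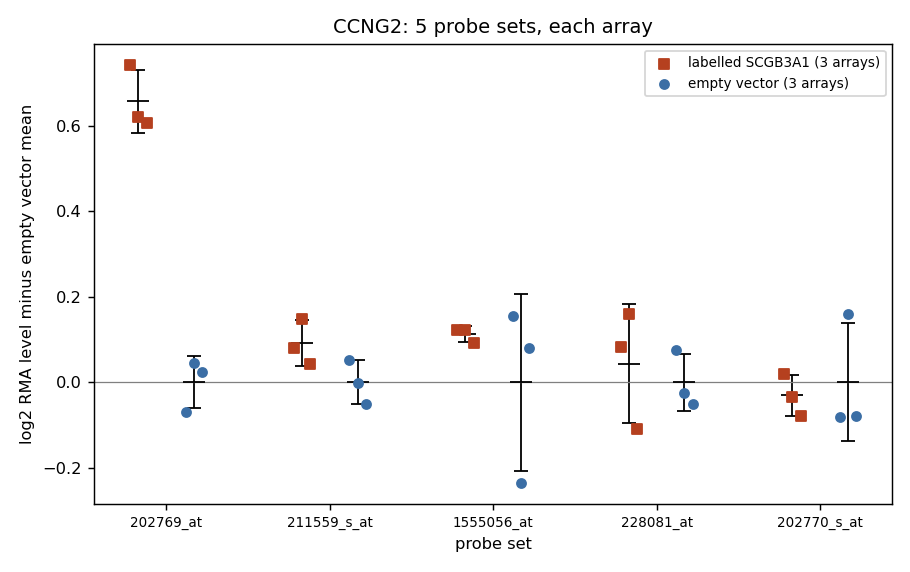
Log2 RMA level of each array minus the empty vector mean (vertical axis) for the 5 probe sets of CCNG2 (horizontal axis). Squares are arrays labelled SCGB3A1 and circles empty vector arrays, and bars give mean and SD (n = 3). In 202769_at all 3 labelled arrays lie above all 3 empty vector arrays, with means 0.66 apart, and in the other 4 probe sets the groups overlap around 0.

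Taken array by array, the gap between 202769_at and 202770_s_at was 0.39, 0.32 and 0.35 in the arrays labelled SCGB3A1, against -0.32, -0.45 and -0.23 in the empty vector arrays. The log2 fold changes of these probe sets thus differed by 0.69 ± 0.07 (SE, n = 3 each). The difference was 0.57 ± 0.08 against 211559_s_at, 0.61 ± 0.11 against 228081_at and 0.54 ± 0.15 against 1555056_at. In each of these 4 pairings the groups did not overlap. All 4 share 202769_at, the probe set through which CCNG2 was chosen, so they carry its gap and are not separate results. The range of the fold changes within CCNG2, 0.69, was the second widest among the 706 genes with exactly 5 probe sets, whose median range was 0.21. That range ends at 202769_at, the probe set through which CCNG2 was chosen, so a wide range followed in part from the choice. CDKN1C and KLF6, also with 5 probe sets, had ranges of 0.15 and 0.24. By the platform annotation, 202769_at and 228081_at were designed on expressed sequence tags, 202770_s_at on a RefSeq transcript and the other 2 on mRNA or cDNA records, while the suffix _s_at marks probes shared by several transcripts. Where each probe set lies along the CCNG2 transcript was not analysed here, and what sets 202769_at apart was not tested. Probe sets 202770_s_at and 211559_s_at had mean levels (10.53 and 10.43) like that of 202769_at (10.54) and read -0.03 and 0.09. Neither a change of transcript form nor a change of total CCNG2 RNA can be read from 202769_at alone. The mean over its 5 probe sets was a log2 fold change of 0.17.

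**Figure D2:**
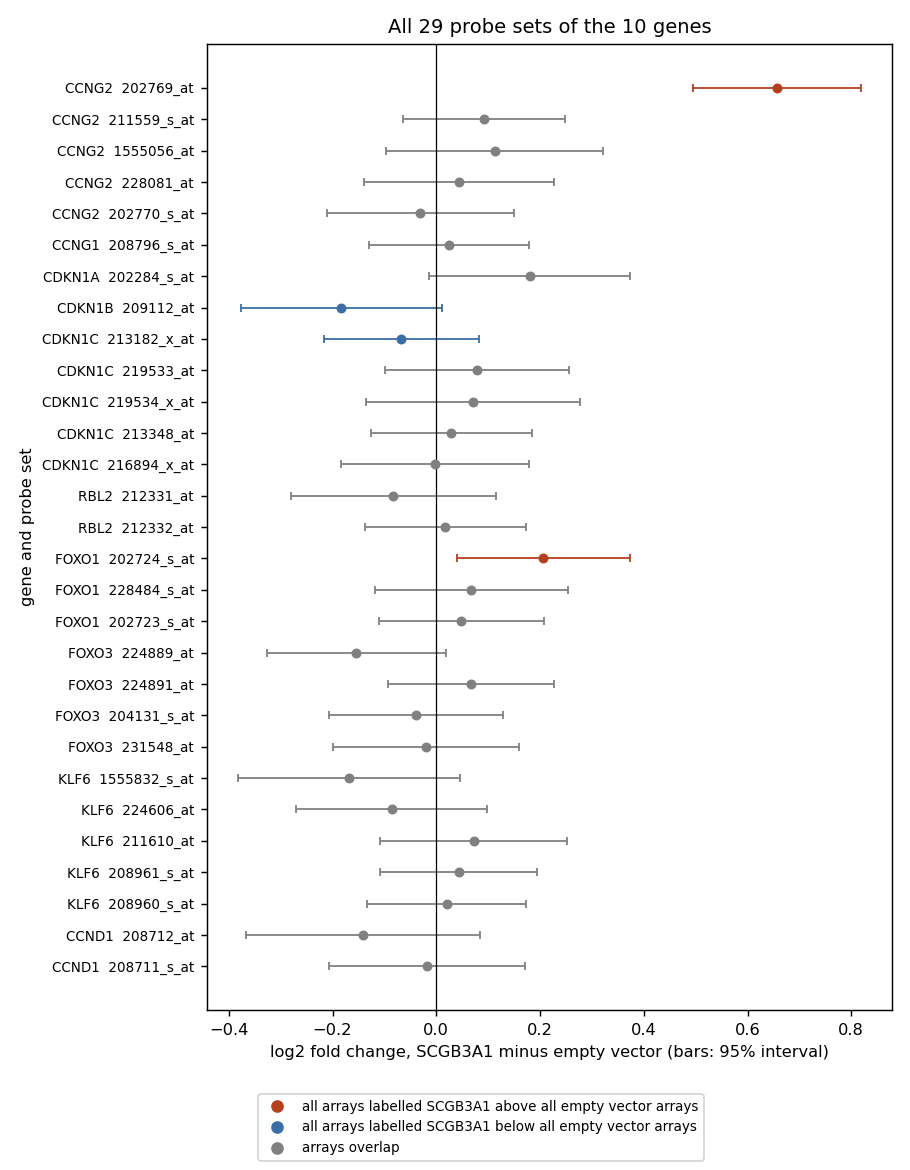
Log2 fold change, arrays labelled SCGB3A1 minus empty vector (horizontal axis), with 95% intervals from limma for the 29 probe sets of the 10 genes (vertical axis). Colour marks probe sets whose groups do not overlap. CCNG2 202769_at stands at 0.66, and the other 28 lie between -0.18 and 0.21.

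Outside CCNG2, differences were small: 13 of the 24 probe sets were positive and 11 negative, with a median log2 fold change of 0.019, beside 0.0026 over all probe sets. The median size of the difference was 0.067, beside 0.063 over all. Groups did not overlap in 4 of the 29 probe sets, 2 higher (CCNG2 and FOXO1) and 2 lower (CDKN1B and CDKN1C), beside 11.2% of all probe sets (5.95% higher and 5.25% lower). The member closest to the called one by p was FOXO1 202724_s_at, which was not called (limma, adjusted p = 0.773).

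CCNG1 encodes cyclin G1, the nearest relative of cyclin G2 and a target of p53. Its probe set read 11.80, 11.91 and 11.81 in the arrays labelled SCGB3A1, against 11.84, 11.80 and 11.81 in the empty vector arrays. The groups overlapped, and the 95% interval of the log2 fold change (0.02) ran from -0.13 to 0.18, below the interval of CCNG2 202769_at.

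The 3 inhibitors of the Cip/Kip family differed in direction. CDKN1A encodes p21, the inhibitor that p53 induces, and read 10.81, 10.92 and 10.66 in the arrays labelled SCGB3A1, against 10.73, 10.49 and 10.63 in the empty vector arrays. Empty vector replicate 2 was the lowest and the groups overlapped (log2 fold change 0.18, 95% interval -0.01 to 0.37, and 0.12 without empty vector replicate 2). CDKN1B encodes p27, which restrains CDK2 in resting cells and is a FOXO target, and it read 10.22, 10.18 and 10.22 in the arrays labelled SCGB3A1, against 10.31, 10.59 and 10.27 in the empty vector arrays. All labelled arrays lay below the empty vector arrays, with empty vector replicate 2 the highest, and the difference of -0.18 (95% interval -0.38 to 0.01) was -0.083 without that array. CDKN1C, an imprinted gene, encodes p57. Its 5 probe sets lay between -0.07 and 0.08, with 3 positive and 2 negative. One of them, 213182_x_at, did not overlap, with 7.44, 7.46 and 7.43 in the arrays labelled SCGB3A1 against 7.49, 7.50 and 7.55 in the empty vector arrays (log2 fold change -0.07, 95% interval -0.22 to 0.08), and 219533_at (0.08, 95% interval -0.10 to 0.26) lay below the median level. Of the CDKN1C probe sets, 3 carry the suffix _x_at, which marks probes that may read other genes as well.

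RBL2 encodes p130, the pocket protein of quiescent cells. Probe set 212331_at read 9.71, 9.91 and 9.78 in the arrays labelled SCGB3A1, against 9.74, 10.04 and 9.85 in the empty vector arrays, with empty vector replicate 2 again highest (log2 fold change -0.08, and -0.0014 without that array). Probe set 212332_at read 8.89, 8.77 and 8.87 in the arrays labelled SCGB3A1, against 8.86, 8.82 and 8.80 in the empty vector arrays (0.02, 95% interval -0.14 to 0.17). Both probe sets of RBL2 overlapped between the groups, and they had opposite signs.

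FOXO1 and FOXO3 are the transcription factors that link low PI3K and AKT signalling to arrest genes such as CCNG2 and CDKN1B. All 3 probe sets of FOXO1 were positive. In 202724_s_at the levels were 8.21, 8.13 and 8.004 in the arrays labelled SCGB3A1, against 7.89, 7.88 and 7.96 in the empty vector arrays. The groups did not overlap, although the lowest labelled array was only slightly above the highest empty vector array (log2 fold change 0.21 ± 0.08, SE, 95% interval 0.04 to 0.37), and with 1 array left out the difference ran from 0.16 to 0.26. The other probe sets of FOXO1 read 0.05 (95% interval -0.11 to 0.21) and 0.07 (95% interval -0.12 to 0.25) and overlapped. The latter, 228484_s_at, lay below the median level of all probe sets and was -0.0061 without empty vector replicate 2. Of the 4 probe sets of FOXO3, 1 was positive and 3 were negative. The farthest from 0, 224889_at, read 9.33, 9.26 and 9.44 in the arrays labelled SCGB3A1, against 9.43, 9.60 and 9.47 in the empty vector arrays (log2 fold change -0.15, 95% interval -0.33 to 0.02), and the groups overlapped. Probe set 224891_at read 11.64, 11.62 and 11.60 in the arrays labelled SCGB3A1, against 11.55, 11.64 and 11.47 in the empty vector arrays (0.07, 95% interval -0.09 to 0.23). RNA levels of FOXO factors do not show their activity, which is set by phosphorylation and by exit from the nucleus.

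KLF6, a zinc finger factor that can induce CDKN1A, had 3 positive and 2 negative probe sets, from -0.17 to 0.07, all with overlapping groups. The lowest, 1555832_s_at, read 10.84, 10.98 and 11.15 in the arrays labelled SCGB3A1, against 10.99, 11.30 and 11.17 in the empty vector arrays. The means were 10.99 ± 0.15 in the arrays labelled SCGB3A1 and 11.15 ± 0.15 in the empty vector arrays (SD, n = 3 each), so the difference was about as wide as the spread within a group (95% interval -0.38 to 0.05). It was -0.094 without SCGB3A1 replicate 1 and -0.098 without empty vector replicate 2. CCND1, cyclin D1, binds CDK4 and CDK6 and starts the G1 phase. Its probe set 208712_at read 9.75, 9.71 and 9.80 in the arrays labelled SCGB3A1, against 9.74, 10.17 and 9.78 in the empty vector arrays. The difference of -0.14 (95% interval -0.37 to 0.08) was set by empty vector replicate 2, and without it was -0.0063. The second probe set of CCND1 read 10.20, 10.35 and 10.50 in the arrays labelled SCGB3A1, against 10.45, 10.34 and 10.31 in the empty vector arrays (-0.02, 95% interval -0.21 to 0.17).

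**Figure D3:**
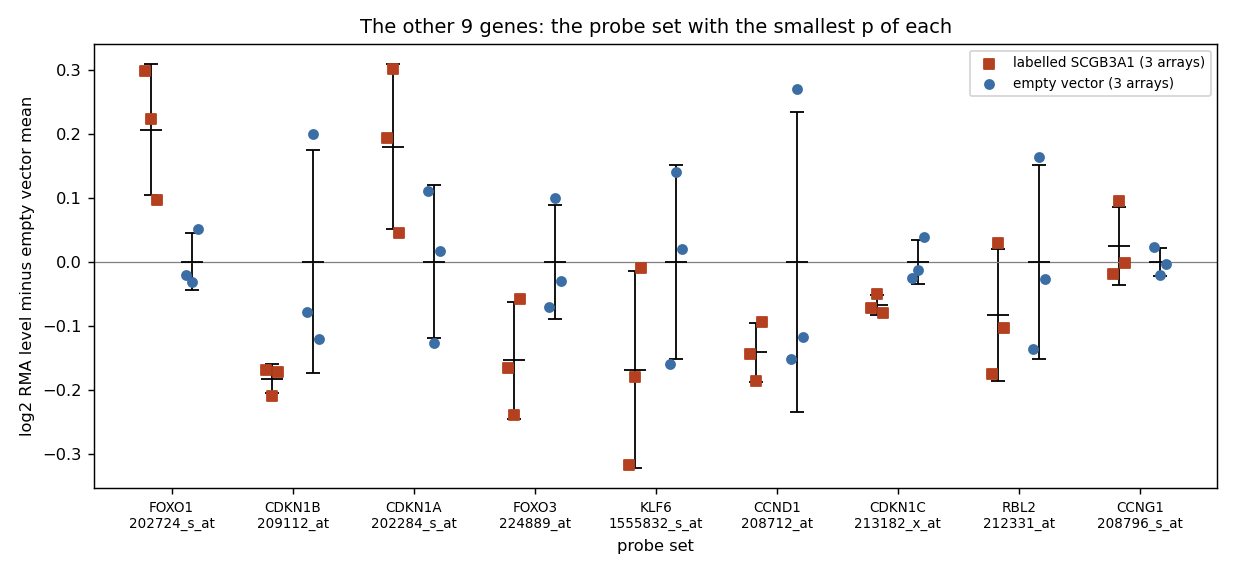
Log2 RMA level of each array minus the empty vector mean (vertical axis) for 1 probe set, that with the smallest p, of each of the other 9 genes (horizontal axis). Squares are arrays labelled SCGB3A1, circles empty vector arrays, bars mean and SD (n = 3). FOXO1, CDKN1B and CDKN1C do not overlap. Over all 24 probe sets of these genes, 1 is so higher and 2 lower, beside 5.95% and 5.25% of all probe sets. One empty vector array, replicate 2, is the highest empty vector value for CDKN1B, FOXO3, KLF6, CCND1 and RBL2.

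Empty vector replicate 2 was the highest or lowest of the 6 arrays in 18 of the 29 probe sets (62.1%, 9 highest and 9 lowest), beside 43.9% of all probe sets. The other arrays held such an end value in 5 to 12 of the 29. CCNG2 202769_at was as large without this array (0.68), whereas the differences of CDKN1B, CCND1 and RBL2 212331_at shrank as given above. Without it FOXO1 202724_s_at read 0.19, FOXO3 224889_at -0.10 and KLF6 1555832_s_at -0.098.

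**Figure D4:**
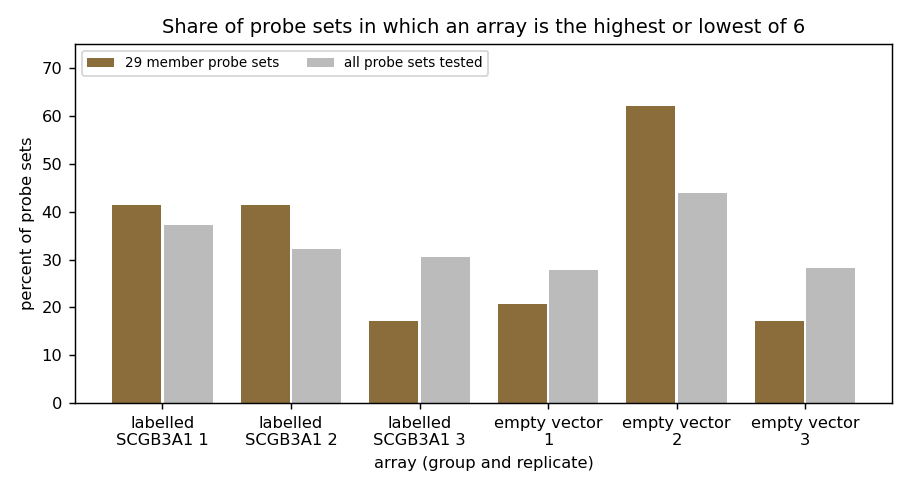
Percent of probe sets (vertical axis) in which each array (horizontal axis) is the highest or lowest of the 6, for the 29 probe sets of the 10 genes and for all probe sets tested. Empty vector replicate 2 reaches 62.1% of the 29, beside 43.9% of all.

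The genes around these regulators were read from 9 lists, each gene being represented by its probe set of highest mean level. Of 123 listed genes, 115 were read by a probe set annotated to them alone. In limma 0 of the 115 passed an adjusted p of 0.05 (lowest 0.705), beside 0.0303% of all 19775 genes. At an unadjusted p under 0.05 there were 7, 5 higher and 2 lower, or 6.09%, beside 6.82% of all genes (3.93% higher and 2.89% lower). Their median log2 fold change was -0.012, beside 0.011 over all genes, and groups did not overlap in 19 (12 higher and 7 lower), or 16.5%, beside 12.3% of all genes (7.09% higher and 5.24% lower).

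The other targets of p53 (12 genes, 0 called, median 0.011) held 3 with non-overlapping groups, all higher, a direction in which 7.09% of all genes did not overlap. GDF15, a stress-induced cytokine, read 10.18, 10.25 and 9.99 in the arrays labelled SCGB3A1, against 9.91, 9.81 and 9.85 in the empty vector arrays (log2 fold change 0.29 ± 0.08, SE; limma, adjusted p = 0.705). AEN, a nuclease of apoptosis, and TP53INP1, a p53 cofactor, read 0.20 and 0.19 and did not pass (limma, adjusted p = 0.784 and 0.802). The other 9 of the list lay closer to 0 and all overlapped. Among the other FOXO targets (17 genes, 0 called, median 0.0083) SESN1, a sestrin induced by both p53 and FOXO, read 10.23, 10.10 and 10.15 in the arrays labelled SCGB3A1, against 9.96, 9.96 and 9.94 in the empty vector arrays (0.21 ± 0.07, SE; limma, adjusted p = 0.743). IRS2, an adaptor of the insulin receptor, read -0.19 and PIK3IP1, an inhibitor of PI3K, 0.18. In that list 9 genes were positive and 8 negative.

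Partners of the G cyclins (10 genes, 0 called, median 0.041) held PPP2R1A, the scaffold subunit of PP2A, at 0.19, PPP2R5E, a PP2A subunit of the class that binds G cyclins, at -0.15, and GAK, a kinase named for its association with cyclin G, at 0.14. The groups did not overlap for these 3 of the 10 genes, 2 higher and 1 lower, beside 12.3% of all genes. Of the 3, 0 were called (lowest adjusted p in limma 0.782). The remaining CDK inhibitors (4 genes, 0 called, median -0.082) were all negative, with CDKN2D at -0.13, CDKN2A at -0.12 and CDKN2B at -0.05. Of the 4, only CDKN2A did not overlap, in a direction in which 5.24% of all genes did not overlap. CDKN2B lay below the median level of all probe sets (6.54 against 6.91). The pocket protein and DREAM list (12 genes, 0 called, median 0.0085) had RBL1, the relative of RBL2, at -0.19, TFDP2 at 0.13 and LIN54 at -0.09, with 6 genes on either side of 0 and overlap in all. Inputs to FOXO (9 genes, 0 called, median -0.010) overlapped throughout as well, with AKT1 at 0.17, IGF1R at 0.10 and INSR at -0.07.

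Cell cycle genes were close to 0. The G1 cyclins, kinases and E2F factors (16 genes, 0 called, median -0.011) had CCNC at -0.15, CCNE2 at -0.16 and CDK4 at 0.12. Proliferation markers (20 genes, 0 called, median -0.045) had 13 negative and 7 positive members. PCNA, the sliding clamp of replication, read 10.94, 11.01 and 11.04 in the arrays labelled SCGB3A1, against 11.11, 11.26 and 11.10 in the empty vector arrays (-0.16 ± 0.08, SE; limma, adjusted p = 0.810). TOP2A, a topoisomerase of dividing cells, read -0.14 and AURKB, a mitotic kinase, 0.13. In the antiproliferative and KLF list (15 genes, 0 called, median 0.0024) KLF2, a factor of quiescent endothelium and T cells, read 8.23, 8.40 and 8.33 in the arrays labelled SCGB3A1, against 8.53, 8.53 and 8.56 in the empty vector arrays (-0.22 ± 0.07, SE; limma, adjusted p = 0.739). BTG1, an antiproliferative factor, read 0.13, and HES1, a repressor of differentiation, 0.14. Groups in the antiproliferative and KLF list did not overlap for 3 genes higher and 2 lower, beside 7.09% and 5.24% of all genes. In bulk samples, a different share of resting cells and a different level per cell cannot be told apart.

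**Figure D5:**
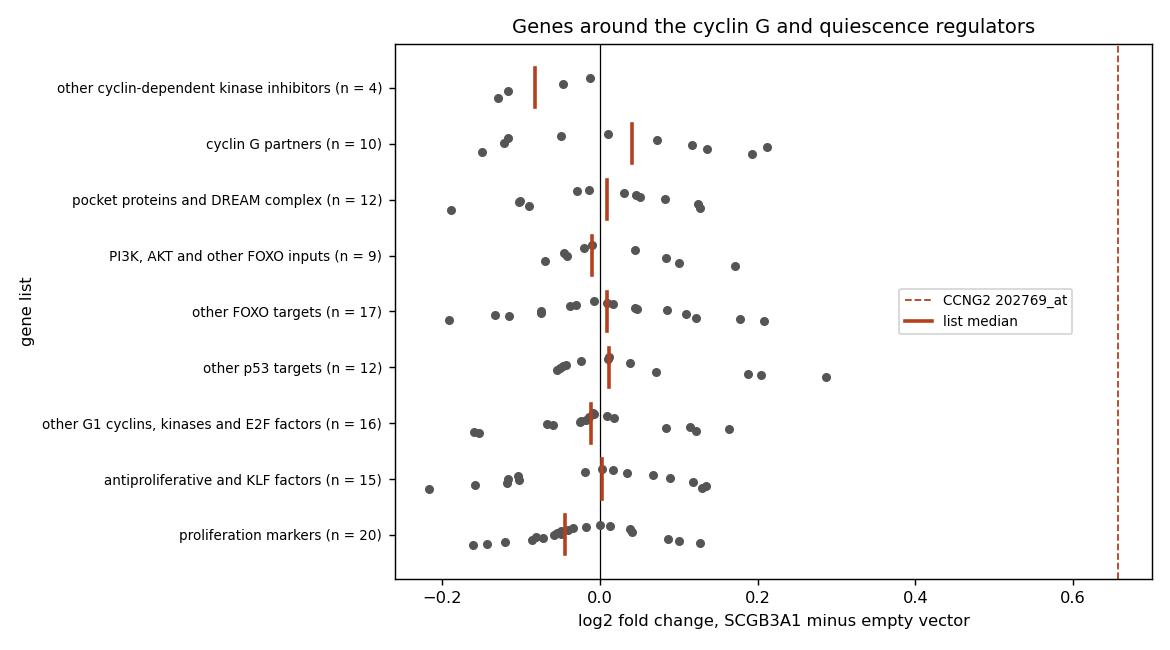
Log2 fold change, arrays labelled SCGB3A1 minus empty vector (horizontal axis), for single genes (points) of the 9 lists, whose medians are drawn as bars, and for CCNG2 202769_at (dashed line). All 115 genes lie between -0.22 and 0.29, short of the 0.66 of that probe set.

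The genes whose levels followed CCNG2 202769_at most closely over the 6 arrays, among 1804 probe sets of other genes with an SD of at least 0.2, were IFNGR1, a chain of the interferon gamma receptor, DSP, the desmosomal protein desmoplakin, CLDN1, a tight junction protein, KRT15, a basal keratin, and CD36, a fatty acid receptor. Likeness, Pearson's r, is given here as a description, and it is high for any gene whose groups are far apart, since the 6 arrays fall into 3 and 3. It was 0.99 for IFNGR1 and DSP, 0.98 for CLDN1 and 0.97 for KRT15 and CD36. Within the groups, after subtraction of each group's mean, it was 0.67, 0.68, 0.20, 0.098 and -0.40 in the same order of genes. IFNGR1 read 11.51, 11.51 and 11.49 in the arrays labelled SCGB3A1, against 10.96, 11.10 and 11.08 in the empty vector arrays (log2 fold change 0.46 ± 0.07, SE; limma, adjusted p = 0.119). DSP read 10.44, 10.39 and 10.27 in the arrays labelled SCGB3A1, against 9.91, 9.93 and 9.92 in the empty vector arrays (0.45 ± 0.07, SE; limma, adjusted p = 0.144). IFNGR1 and DSP were thus not called. CLDN1, KRT15 and CD36 were called, at log2 fold changes of 0.54, 0.97 and 0.73 (limma, adjusted p = 0.047, 0.0030 and 0.0057).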

How the data were processed

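SUM159 oncospheres were profiled on Affymetrix Human Genome U133 Plus 2.0 arrays from 100 ng of total RNA each. The labels call the 3 arrays of a group biological replicates, without saying whether they came from separate transductions, and p-values then reflect only how far these samples vary, which may be technical. With Chipster (version 3.8.0) the authors applied robust multiarray average (RMA) to the raw scans, and the deposited values are log2 levels from 5.66 to 14.7. All arrays share nearly 1 distribution (sorted values within 0.0256 of their mean), so total RNA per cell is not visible, and RMA compresses differences of weakly expressed genes. The number of arrays limits the precision, and the table holds no detection calls.

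Of 54675 probe sets, 62 controls were set aside. Gene names follow the platform annotation held by GEO, checked by gene identifier against RefSeq (GRCh38.p14), which changed 0 symbols. A single symbol was given for 41091 probe sets, several for 1801 and none for 11721. Groups were compared with limma (version 3.58.1, R 4.3.3; lmFit and eBayes, two-sided), as in the study's empirical Bayes comparison, with Benjamini-Hochberg adjustment over all 54613 probe sets, and tested on simulated data. An interval is at 95%. The exact permutation test of 3 against 3 arrays cannot go below 0.1 and was not used. Fold changes are arrays labelled SCGB3A1 over empty vector.

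The 10 genes and the lists were chosen with earlier results of these data known. Named are all 10 genes, SCGB3A1, up to 3 genes of smallest p in each list, and the 5 genes most like CCNG2 202769_at over the arrays. The cell type markers named were chosen after their values were seen. The promoter motifs and the genes printed with sequence were chosen after the levels were seen. Alternatives were other centring and normalization, an intensity trend, array weights, a replicate block, filters on dim and on _s_at and _x_at probe sets, the study's signature thresholds, and each array left out.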

Additional observations from a re-analysis of the deposited data

How the results depend on the processing

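The log2 fold change of CCNG2 202769_at was 0.61 to 0.68 with 1 array left out, called only without empty vector replicate 2, and with a replicate block it was 0.66 and no longer called (limma, adjusted p = 0.0912). The labels do not say whether same-numbered arrays were handled together. Their deviations correlated at 0.145, -0.144 and -0.0871, which cannot settle whether they shared a batch. The count of called probe sets over the whole table was 10, and it was 19 with an intensity trend, 16 with array weights, 4 with the replicate block, 6 without dim probe sets, 17 by the signature thresholds (a log2 fold change beyond 0.5 and an adjusted p under 0.25) and 1 to 6 with 1 array left out. The count among the 29 probe sets was 1, and it was 0 with the replicate block and 0 to 1 with 1 array left out. Probe sets of the 10 genes with groups that do not overlap numbered 4. They were 2 of 14 without _s_at and _x_at probe sets (10.7% of all such probe sets) and 5 to 11 of 29 with 1 array left out (19.1% to 26.0% of all). In these alternatives limma called 0 of the listed genes, with 4 to 15 at an unadjusted p under 0.05. None of the 359 values of the 29 probe sets under the alternatives moved by the spread between replicates. This count could hardly come out otherwise, so it does not show that the values are robust. Leaving 1 array out of so small a group shifts the difference by less than that spread. The intensity trend, the replicate block and the filters leave each fold change as it was. Of the 359 values, 17, of 13 probe sets not called, had the other sign, 16 with 1 array left out. Averaged over their probe sets, CCNG2 read 0.17, FOXO1 0.11 and FOXO3 -0.037.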
